A study of Mus musculus with 9 samples.

Results

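The GATA transcription factors were followed in E10.5 mouse tissues through all probes that the array annotation assigns to *Gata1*, *Gata2*, *Gata3*, *Gata4*, *Gata5* and *Gata6*. There were 7 such probes for the 6 genes, of 25697 probes and 18120 gene symbols on the array. *Gata1* had 2 probes and each of the other genes had 1. All embryos were CD-1 mice at E10.5, and no allele or treatment was named for any group. The otic vesicle (OV) group held isolated otic vesicles, the epithelial sacs from which the inner ear forms. The periotic group held the tissue around them, which included mesenchyme and hindbrain, and the embryo-minus-otic group held whole embryos from which the greater otic region had been removed. Each group had 3 pools of dissected tissue, each pool on its own array, and *n* was 3 throughout. The dissections came from separate litters, and the 3 tissues were taken from the same embryos, but the labels do not say which pools share a litter. The *q*-values judge group differences against the spread between pools within groups, in a fit that did not pair the pools.

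GATA factors are zinc finger proteins that bind DNA at the letters GATA. *Gata1*, *Gata2* and *Gata3* are best known from blood, where *Gata1* drives red cell and platelet formation, *Gata2* maintains stem and progenitor cells and *Gata3* directs T cells, and the latter genes also act in neurons, kidney and the ear. *Gata4*, *Gata5* and *Gata6* act in the heart and in the endoderm that lines the gut and forms liver and lung. Loss of a single copy of *GATA3* in people causes deafness together with parathyroid and kidney defects.

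The start regions of *Gata3*, *Gata2* and *Gata1* are shown as context, because the first pair were the GATA genes measured above background in all 3 tissues and *Gata1* was measured in none. Each sequence covers the 250 bases before a RefSeq transcript start on build GRCm38.p6, read 5′ to 3′ on the gene's own strand. Capitals mark the letters GATA or the reverse complement TATC. The *Gata3* window was chr2:9878601-9878850 (minus strand), the *Gata2* window was chr6:88193641-88193890 (plus strand) and the *Gata1* window was chrX:7967911-7968160 (minus strand).
Gata3: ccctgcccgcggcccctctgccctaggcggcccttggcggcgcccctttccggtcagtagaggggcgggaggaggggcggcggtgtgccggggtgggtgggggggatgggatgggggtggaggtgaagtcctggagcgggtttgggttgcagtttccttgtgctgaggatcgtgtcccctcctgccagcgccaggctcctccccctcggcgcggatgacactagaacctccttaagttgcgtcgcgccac
Gata2: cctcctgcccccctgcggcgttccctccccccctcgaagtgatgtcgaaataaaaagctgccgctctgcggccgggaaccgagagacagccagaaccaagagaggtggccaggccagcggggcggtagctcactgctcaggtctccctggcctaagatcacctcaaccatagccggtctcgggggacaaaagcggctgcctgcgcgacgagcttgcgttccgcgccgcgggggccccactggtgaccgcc
Gata1: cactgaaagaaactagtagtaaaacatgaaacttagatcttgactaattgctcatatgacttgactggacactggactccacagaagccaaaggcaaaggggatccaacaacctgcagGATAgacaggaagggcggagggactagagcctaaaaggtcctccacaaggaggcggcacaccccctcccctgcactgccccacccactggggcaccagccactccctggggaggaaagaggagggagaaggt

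The *Gata1* window held 1 such match, at position -132 from the start, and the *Gata2* and *Gata3* windows held none. Of 32851 RefSeq start windows of the same length, 53.6% held GATA or TATC. A longer form, AGATAA, was also searched on both strands, with T allowed as its first letter and G as its last. None of the 3 windows held it, while 26.5% of all windows did. The windows differed in base composition. GC content was 70.0% for *Gata3* and 67.2% for *Gata2*, with 19 and 22 CG dinucleotides, against 54.0% and 2 for *Gata1*, and the median over all windows was 52.4%. A second start of *Gata2* and the start of *Gata5*, the fourth member with an entry, held no match either. Their GC content was 74.0% and 70.0%, with 24 and 22 CG dinucleotides. *Gata5*, like *Gata1*, was above background on no array, so base composition did not follow whether a gene was measured.

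The 9 arrays had like shares of probes above background, from 43.9% to 47.3%. Above background was taken as a detection *p* under 0.01 against the negative control beads. The median deposited signals of the arrays ran from 59.1 to 85.8. No 2 arrays held identical values. Known genes followed the tissue labels in part. Of 28 probes for otic genes, 21 were higher in OV than in periotic tissue and 20 higher than in embryo-minus-otic tissue, none was lower, and of 15 probes for hindbrain and neural tube genes 9 were higher in periotic than in embryo-minus-otic tissue. Of 18 mesenchyme probes, 13 were lower in periotic than in embryo-minus-otic tissue and none was higher.

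Of the 7 GATA probes, 3 were above background on every array of at least 1 group, namely *Gata2*, *Gata3* and *Gata6*. Over the whole array 11849 of 25697 probes met this. *Gata3* was high in OV and *Gata6* in embryo-minus-otic tissue, while *Gata2* was higher in both the OV and the periotic group than in embryo-minus-otic tissue. Intensities are given as log2 values after quantile normalization, where a step of 1 is a doubling. They can be set against each other within a probe, not between probes. A probe was called at a *q*-value under 0.05 from limma, adjusted over all probes by the Benjamini-Hochberg method.

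**Figure D1:**
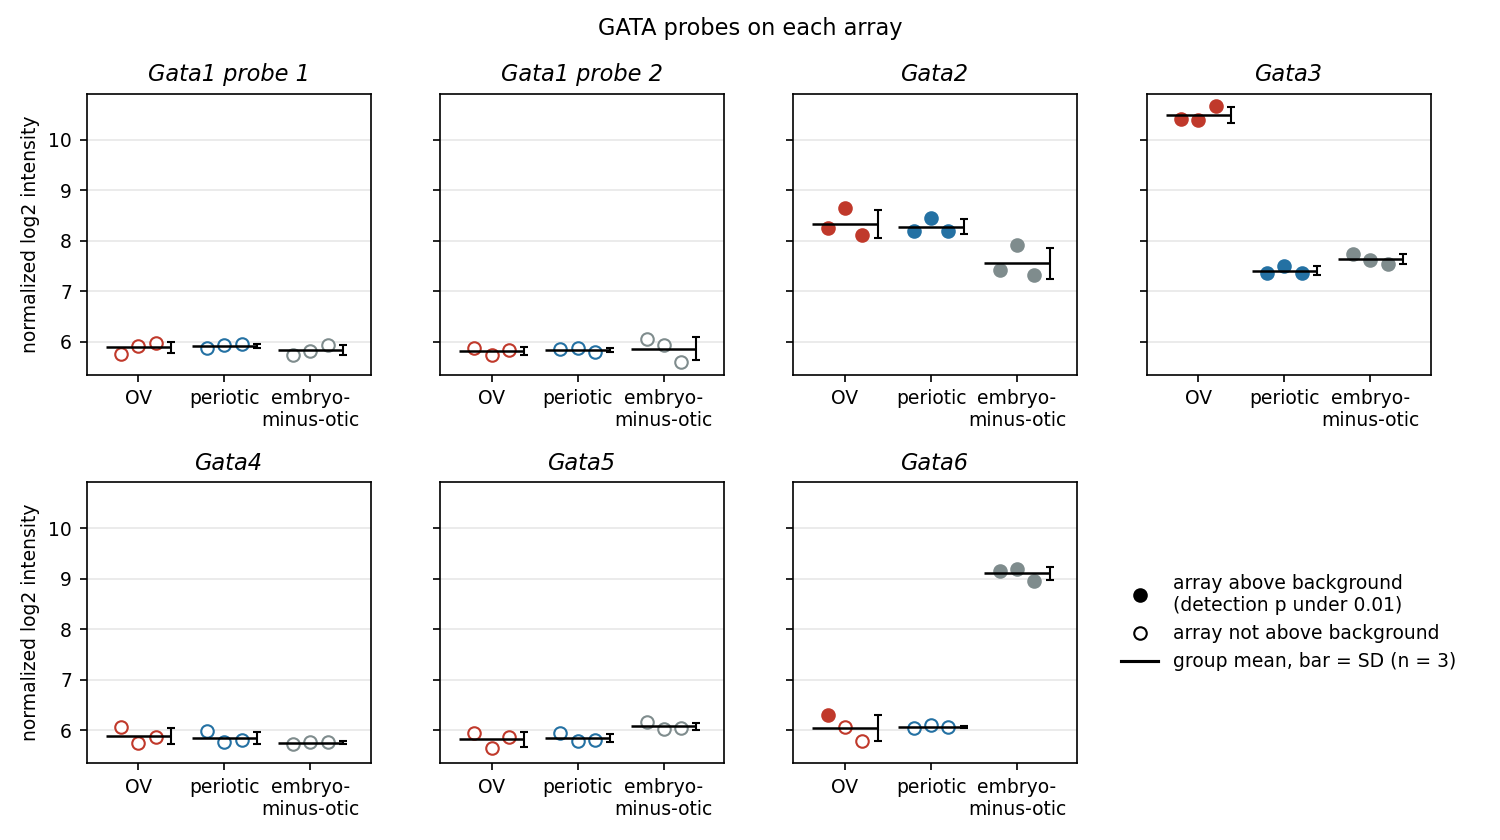
Normalized log2 intensity of each GATA probe (vertical axis) on the 3 arrays of OV, periotic and embryo-minus-otic tissue, with the group mean as a line and the SD as a bar. Filled points are arrays above background. All 9 points are filled for Gata2 and Gata3, 4 are filled for Gata6, and none for Gata1, Gata4 or Gata5.

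In OV against periotic tissue, *Gata3* was the 1 GATA probe called of 7, beside 10.2% of all probes called and 5.07% called higher in OV (5.15% were lower). In OV against embryo-minus-otic tissue 3 of 7 were called, *Gata2* and *Gata3* higher and *Gata6* lower, beside 11.4% of all probes in either direction, 5.89% higher and 5.51% lower. In periotic against embryo-minus-otic tissue 2 of 7 were called, *Gata2* higher and *Gata6* lower, beside 5.81%, 2.86% and 2.95% of all probes. These 3 comparisons share arrays, since each group enters a pair of them.

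**Figure D2:**
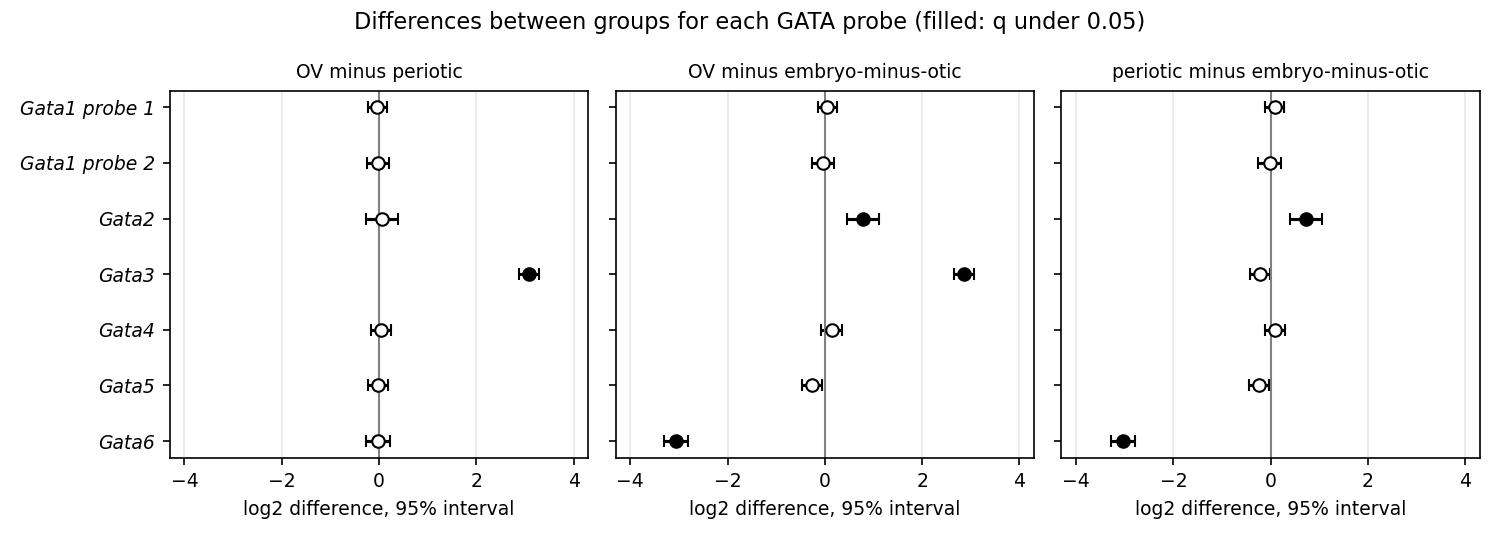
Log2 difference between group means for each GATA probe with its 95% interval (horizontal axis), 1 panel per comparison, filled where the q-value was under 0.05. Gata3 lies at 3.09 and 2.87 in the OV panels and Gata6 at -3.06 and -3.04 in the panels against embryo-minus-otic tissue. The Gata1, Gata4 and Gata5 probes were not above background on any array.

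*Gata3* (probe ILMN_1248843, annotated to chromosome 2) gave log2 intensities of 10.42, 10.40 and 10.67 in OV. The periotic arrays gave 7.36, 7.50 and 7.35. The embryo-minus-otic arrays gave 7.73, 7.61 and 7.54. The OV arrays thus stood apart from all others, and the other groups lay near each other without overlapping. All 9 arrays were above background for this probe. Before normalization the OV signals were 1542, 1312 and 1440, against 150 to 197 in periotic tissue and 154 to 229 in embryo-minus-otic tissue. Group means were 10.49 ± 0.15, 7.40 ± 0.086 and 7.63 ± 0.099 (SD, *n* = 3).

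The OV fold Δ of *Gata3* was 8.51 over periotic tissue (log2 difference 3.09 ± 0.098 SE, 95% interval 2.88 to 3.30, *q* = 1.34e-11). Over embryo-minus-otic tissue the fold Δ was 7.29 (log2 difference 2.87 ± 0.098 SE, 95% interval 2.66 to 3.07, *q* = 8.03e-11). By size, these were the 14th and the 9th largest rises among all probes. Both differences far exceeded the spread between pools. Periotic and embryo-minus-otic tissue were next to each other in the order of levels, with a difference of -0.22 (95% interval -0.43 to -0.015) that did not pass the test (*q* = 0.267). *Gata3* RNA was therefore measurable outside the OV dissection in both non-otic groups. In bulk tissue, fewer cells of a type and less RNA per cell cannot be told apart.

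*Gata2* (ILMN_2612283, chromosome 6) was above background on all 9 arrays and spanned a narrower range. The OV arrays gave 8.25, 8.65 and 8.12. The periotic arrays gave 8.19, 8.45 and 8.20. The embryo-minus-otic arrays gave 7.42, 7.91 and 7.33, all under every OV and periotic array. Within each group the array numbered 2 was the highest. The means were 8.34 ± 0.28 in OV, 8.28 ± 0.15 in periotic and 7.55 ± 0.31 in embryo-minus-otic tissue (SD, *n* = 3).

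For *Gata2* the fold Δ over embryo-minus-otic tissue was 1.73 in OV (log2 difference 0.79 ± 0.15 SE, 95% interval 0.46 to 1.12, *q* = 0.00238). In periotic tissue it was 1.66 (0.73 ± 0.15 SE, 95% interval 0.40 to 1.06, *q* = 0.00807). The call in periotic tissue was lost without periotic replicate 2, at a log2 difference of 0.65 and *q* = 0.0511, where *q* over all alternatives ran from 7.40e-05 to 0.0511. Between OV and periotic tissue the arrays overlapped and the log2 difference was 0.059 (95% interval -0.27 to 0.39, *q* = 0.918), so a difference of up to about 1.31-fold in favour of OV lay within the interval. *Gata2* and *Gata3* thus had different orders of levels. The OV stood above both other tissues for *Gata3*, whereas for *Gata2* it was level with its surroundings within the error.

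*Gata6* (ILMN_2868133, chromosome 18) gave 9.16, 9.20 and 8.96 in embryo-minus-otic tissue, where all 3 arrays were above background. The OV arrays gave 6.30, 6.05 and 5.79. The periotic arrays gave 6.04, 6.09 and 6.06. No periotic array was above background, with detection *p* values from 0.0263 to 0.0539. In OV, replicate 1 was above background at a detection *p* value of 0.00376, and the other OV arrays were not, at 0.0451 and 0.484. The embryo-minus-otic arrays lay far above the rest, and the OV and periotic arrays overlapped.

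The *Gata6* signal was 8.35-fold higher in embryo-minus-otic tissue than in OV (log2 difference -3.06 ± 0.12 SE, 95% interval -3.31 to -2.81, *q* = 1.78e-10) and at least 7.60-fold higher than in periotic tissue (*q* = 5.83e-10). The bound for periotic tissue was set by the lowest signal above background on each array. No bound was set for OV, where 1 array was above background, so the 2 folds are not on the same footing. The fall in OV was the 24th largest among all probes. Without OV replicate 1 the log2 difference from OV was -3.18. With a background correction from the negative controls (neqc) it was -4.20, a fold over 1.5 times the one given. Between OV and periotic tissue *Gata6* differed by -0.018 (95% interval -0.26 to 0.23, *q* = 0.970), near the background on both sides.

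OV replicate 1, the OV array with *Gata6* above background, also stood apart from the other OV arrays in heart genes. Over 31 probes of 24 cardiac genes its mean log2 intensity was 6.27 with 9 probes above background, against 5.92 and 5.90 with 2 and 1 probes on the other OV arrays. The periotic arrays had means of 5.91 to 5.95 and the embryo-minus-otic arrays 7.50 to 7.59. The excess on OV replicate 1 was not particular to heart genes. Over 27 erythroid probes its mean was 7.70 with 17 above background, against 7.50 and 7.19 with 12 on each other OV array. Over 28 liver and gut endoderm probes it was not the highest, at 5.97 against 5.92 and 5.98. The part of heart or other tissue in the *Gata6* value of that array was not tested.

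The other members were not above background on any array. The *Gata1* probes (ILMN_1237279 and ILMN_2935686, chromosome X) had detection *p* of 0.103 to 0.647 and 0.0576 to 0.895, and their group means lay between 5.82 and 5.92. *Gata4* (ILMN_2817903, chromosome 14) had detection *p* of 0.0426 to 0.674 and group means of 5.75 to 5.89. Both genes therefore gave no measurable level here, and the probes set no limit on the RNA itself. *Gata5* (ILMN_2596855, chromosome 2) came closest to the background threshold in embryo-minus-otic tissue, with detection *p* of 0.0175, 0.0526 and 0.0426 against 0.139 to 0.842 in OV and 0.164 to 0.476 in periotic tissue.

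The *Gata5* arrays of embryo-minus-otic tissue gave 6.16, 6.02 and 6.05. The OV arrays gave 5.94, 5.64 and 5.87, and the periotic arrays 5.94, 5.79 and 5.80. The embryo-minus-otic values did not overlap with either, but the log2 differences of -0.26 from OV (*q* = 0.106) and -0.24 from periotic tissue (*q* = 0.218) did not pass the test. Over the alternatives that tested them, *q* ran from 0.0504 to 0.450 and from 0.0885 to 0.673. No fold is given, as the probe was not above background in any group.

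The probes whose levels followed *Gata3* and *Gata6* most closely were found by the root mean square (rms) of the differences between 2 probes over the 9 arrays, each probe centred on its own mean, among 11846 candidates above background in a group. For *Gata3* they were *Arhgef19* (rms 0.143, Pearson *r* = 0.999), a guanine nucleotide exchange factor, *Col9a2* (0.218, *r* = 0.991), a cartilage collagen chain also found in the inner ear, and *Krt1-23* (0.225, *r* = 0.998), a keratin now named *Krt23*. In OV, periotic and embryo-minus-otic tissue, *Arhgef19* had mean log2 intensities of 8.84, 5.99 and 6.26, *Col9a2* of 9.15, 6.42 and 6.44 and *Krt1-23* of 9.34, 5.82 and 6.07. All 3 thus stood out in OV, as the measure of likeness requires.

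For *Gata6* the nearest probes were *Myl1* (rms 0.109, *r* = 0.997), a muscle myosin light chain, and the homeobox genes *Hoxb5* (0.147, *r* = 0.998) and *Hoxd10* (0.177, *r* = 0.994), which pattern the trunk and limbs. In the same order of tissues, *Myl1* had means of 6.36, 6.47 and 9.38, *Hoxb5* of 5.92, 5.96 and 9.21 and *Hoxd10* of 5.92, 5.73 and 8.67. The correlations rest on 9 arrays of 3 groups, so they mainly restate the group means. *Gata2* spanned less than 1 on the log2 scale between group means, and no nearest probes were sought for it.

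**Figure D3:**
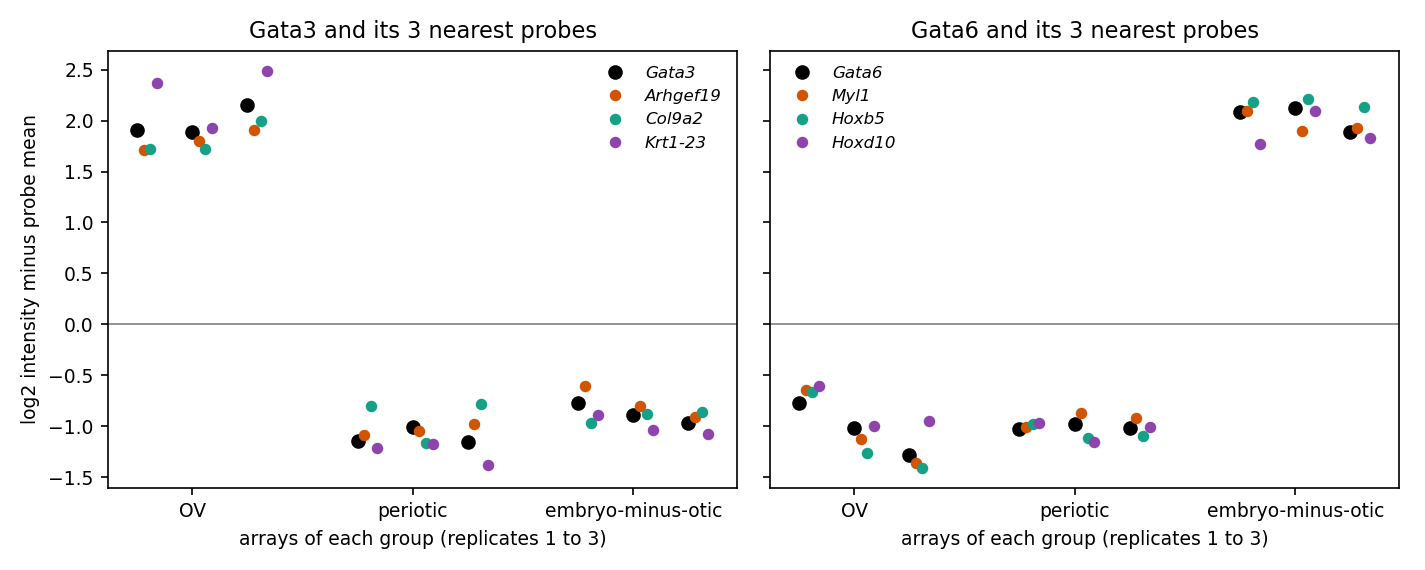
Log2 intensity minus the mean of each probe (vertical axis) on the 9 arrays, for Gata3 and Gata6 and the 3 probes nearest to each. In the left panel the 3 OV arrays lie above the other 6, and in the right panel the 3 embryo-minus-otic arrays do. Within the OV group, replicate 1 is the highest for Gata6 and for its 3 nearest probes.

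Proteins that work with GATA factors were followed through 25 probes of 19 genes, of which 14 probes were above background in a group. In OV against embryo-minus-otic tissue 2 probes were higher and 13 lower, with a median log2 difference of -0.37 against 0.0043 over all probes. Against periotic tissue 2 were higher and 5 lower (median -0.024, all probes -3.71e-05). In periotic against embryo-minus-otic tissue none was higher and 10 were lower (median -0.18, all probes 0.0066), a count that fell to 4 with neqc or with median normalization and to 5 without normalization or without periotic replicate 2. Over all probes, 5.89% were higher and 5.51% lower in OV than in embryo-minus-otic tissue. Against periotic tissue these shares were 5.07% and 5.15%, and in periotic against embryo-minus-otic tissue 2.86% and 2.95%. *Klf1*, *Tal1* and *Gfi1b* are also erythroid genes, and *Nkx2-5*, *Hand2* and *Tbx5* cardiac ones.

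*Zfpm1* (Fog1), a cofactor that binds the amino-terminal zinc finger of GATA factors, was highest in OV. Its means were 11.20 ± 0.25 in OV, 9.75 ± 0.14 in periotic and 10.58 ± 0.27 in embryo-minus-otic tissue (SD, *n* = 3). OV exceeded periotic tissue 2.74-fold (*q* = 2.34e-06) and embryo-minus-otic tissue 1.54-fold (*q* = 0.00743), and periotic tissue was below embryo-minus-otic tissue by a log2 difference of -0.83 (*q* = 0.00143). *Zfpm2* (Fog2), the relative that partners GATA4 in the heart, had the opposite order of OV and embryo-minus-otic tissue, at means of 6.33, 6.48 and 6.88. It was lower in OV than in embryo-minus-otic tissue by -0.55 (*q* = 0.00180) and lower in periotic tissue by -0.40 (*q* = 0.0350). *Ep300*, a histone acetyltransferase, was the other gene higher in OV, by 0.31 over periotic (*q* = 0.0350) and 0.49 over embryo-minus-otic tissue (*q* = 0.00118). The first of these calls was lost in 9 of 17 alternatives, among them leaving out any OV or periotic array, and the second without normalization. The *Zfpm2* call in periotic tissue was lost in 10 of 17, among them leaving out OV replicate 1, embryo-minus-otic replicate 1 or 2 or any periotic array.

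Of the blood complex that GATA1 and GATA2 join, *Lmo2* and *Tal1* were lower in OV than in both other tissues, and *Ldb1* was not called. *Lmo2*, the bridging protein of that complex, had means of 7.70 in OV, 8.85 in periotic and 9.29 in embryo-minus-otic tissue. It was lower in OV by -1.15 against periotic (*q* = 5.06e-06) and -1.59 against embryo-minus-otic tissue (*q* = 1.40e-07). *Tal1*, its helix-loop-helix member, was lower by -0.60 (*q* = 0.00209) and -0.78 (*q* = 2.08e-04), and was above background on 1 OV array. *Klf1*, an erythroid activator, was lower in OV by -0.66 (*q* = 0.00999) and -1.48 (*q* = 6.14e-06), and the call against periotic tissue was lost with median normalization and without OV replicate 3 or periotic replicate 1. *Ldb1*, the dimerizing member, differed by -0.26 against embryo-minus-otic tissue (*q* = 0.0782).

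Among heart partners, *Nkx2-5* was above background on all embryo-minus-otic arrays and on no other. It was at least 1.51-fold higher there than in OV and at least 1.53-fold higher than in periotic tissue. *Tal2*, which acts with GATA2 in midbrain neurons, was at least 2.20-fold higher in embryo-minus-otic than in periotic tissue (*q* = 6.29e-07). *Mef2c*, a muscle activator, had 3 probes, and the probe above background on all arrays was lower in OV by -0.72 against periotic (*q* = 0.00241) and -1.32 against embryo-minus-otic tissue (*q* = 7.37e-06). Another *Mef2c* probe was called in OV against embryo-minus-otic tissue (*q* = 3.14e-04), and the third in no comparison. With median normalization the call of the first against periotic tissue was lost. *Hand2*, *Srf*, *Gfi1b*, *Lyl1* and *Cbfa2t3h* were lower in OV than in embryo-minus-otic tissue on 1 probe each. The log2 difference was -0.37 for *Srf* and -0.51 for *Lyl1*. *Cbfa2t3h*, *Gfi1b* and *Hand2*, not above background on any OV array, were at least 1.42-fold, 1.09-fold and 1.07-fold lower. *Gfi1b* and *Hand2* were above background on 2 of the 3 embryo-minus-otic arrays, so the means behind their bounds include an array that was not. The *Srf* call was lost in 12 of 17 alternatives and the *Gfi1b* call in 6 of 16, both without OV replicate 1 or 3 or embryo-minus-otic replicate 1, the former also without OV replicate 2, embryo-minus-otic replicate 2 or periotic replicate 1 and the latter without embryo-minus-otic replicate 3. The other probes of *Srf* and *Cbfa2t3h* were not called. *Runx1*, *Sfpi1*, *Crebbp* and *Tbx5* were not above background on any array.

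Other genes with a GATA-type zinc finger were followed through 9 probes of 5 genes. No more than 1 of the 9 was called in either direction of a comparison, beside 2.86% to 5.89% of all probes. *Trps1*, a repressor with a GATA-type finger, was the 1 lower in all 3 comparisons, with means of 6.88 ± 0.26, 7.36 ± 0.17 and 7.93 ± 0.21 in OV, periotic and embryo-minus-otic tissue. Its log2 difference between OV and embryo-minus-otic tissue was -1.05 (*q* = 5.49e-05), called in all 17 alternatives. The call against periotic tissue (*q* = 0.0318) was lost in 6 of 17, those with neqc, median or no normalization and without OV replicate 3 or periotic replicate 1 or 3. The call of periotic against embryo-minus-otic tissue (*q* = 0.0207) was lost in 7, the same 3 settings and without replicate 1 or 2 of either group. The 3 *Gatad1* probes were not called, and of the *Mta* genes, subunits of a deacetylase complex, 1 *Mta3* probe was higher in OV than in embryo-minus-otic tissue (*q* = 0.0379), where no array was above background for it, a call lost in 8 of the 16 alternatives that tested it. Among these were those without OV replicate 2 or 3 or embryo-minus-otic replicate 1 or 2. The other *Mta3* probe was not called.

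Genes of the tissues in which GATA factors are known to act were then set beside the members. Over all probes, 5.15% were lower in OV than in periotic tissue and 5.51% lower than in embryo-minus-otic tissue. In periotic against embryo-minus-otic tissue 2.95% of all probes were lower. Of 27 erythroid probes, 13 were lower in OV than in periotic tissue and 20 lower than in embryo-minus-otic tissue, and none was higher. Examples against embryo-minus-otic tissue were *Eraf*, a haemoglobin chaperone, at -2.30, *Slc4a1*, the red cell anion exchanger, at -2.16, and *Hba-a1*, an alpha globin, at -2.07. Of these 27 probes 19 were above background in a group, whereas neither *Gata1* probe was on any array. The erythroid mean was 7.19 to 7.70 on OV arrays, 7.93 to 8.19 on periotic and 8.33 to 8.39 on embryo-minus-otic arrays. Of 13 probes for megakaryocyte and blood progenitor genes none was above background on all arrays of a group, and of 27 endothelial probes 15 were lower in OV than in embryo-minus-otic tissue (8 with median normalization), among them *Plvap* at -1.38 and *Emcn* at -0.98 (not called with median normalization).

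Cardiac genes separated embryo-minus-otic tissue from the other groups, as *Gata6* did. Of 31 probes, 17 were lower in OV and 17 lower in periotic tissue, and none was called between OV and periotic tissue. The count against embryo-minus-otic tissue was also 17 without OV replicate 1. Between OV and periotic tissue 3 probes were called higher in OV without normalization, and 1 with the replicate block, with an intensity trend, with array weights or without OV replicate 3. *Myl4*, *Myl2* and *Actc1*, contractile proteins, were lower in OV by log2 differences of -5.28, -5.06 and -4.76. Of the 31 probes 16 were above background in a group, but *Gata4* and *Gata5* were on no array. Lower levels outside embryo-minus-otic tissue were not particular to cardiac genes. Of 18 mesenchyme probes, 15 were lower in OV and 13 lower in periotic than in embryo-minus-otic tissue. Between OV and periotic tissue, 4 of the mesenchyme probes were lower in OV. Of 28 liver and gut endoderm probes, 10 were above background in a group. Against embryo-minus-otic tissue 11 were lower and 1 higher in OV, and 6 were lower and 1 higher in periotic tissue. Over all probes, 5.89% and 2.86% were higher in these comparisons. The higher calls were lost in 9 and 6 of 17 alternatives. *Afp* and *Apoa2*, secreted liver proteins, were at least 2.97-fold and 2.48-fold lower in OV.

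**Figure D4:**
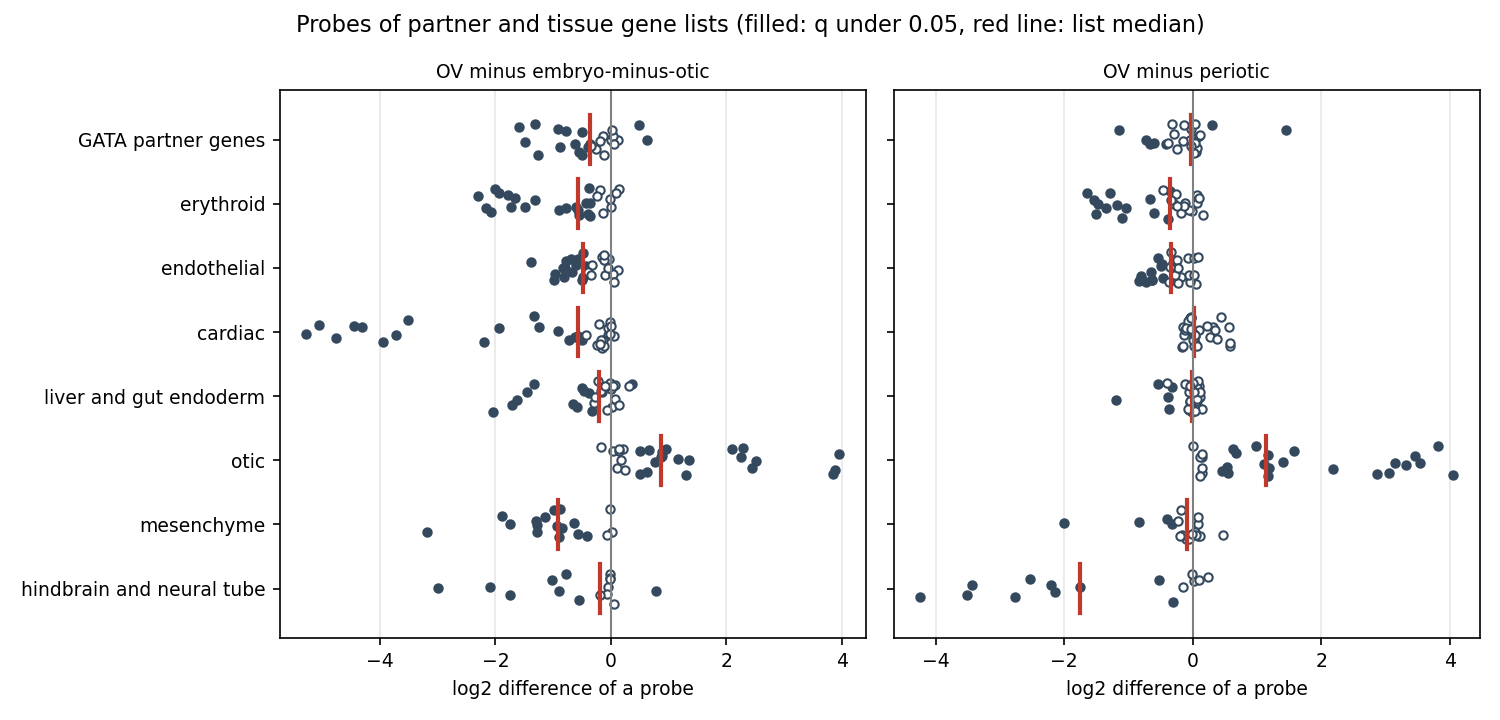
Log2 difference of each probe (horizontal axis) for GATA partner genes and 7 tissue gene lists, OV minus embryo-minus-otic on the left and OV minus periotic on the right, with a red line at the list median and filled points at a q-value under 0.05. Cardiac probes reach -5.28 on the left, while no cardiac probe is filled on the right, and 20 and 21 otic probes lie to the right of zero as filled points.

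Other tissues in which *Gata2* and *Gata3* are known to act gave mixed counts. Of 16 probes for V2b interneuron and serotonergic neuron genes, 5 were lower in OV than in periotic tissue and 5 lower than in embryo-minus-otic tissue. The shares over all probes were 5.15% and 5.51%. In periotic against embryo-minus-otic tissue 2 of the 16 were higher and 1 lower, beside 2.86% and 2.95% of all probes. *Nkx2-2*, a ventral neural tube factor, was at least 3.30-fold lower in OV than in periotic tissue (*q* = 9.79e-11). Of 7 sympathetic probes, 3 were higher and 1 lower in periotic than in embryo-minus-otic tissue, with *Phox2a*, an autonomic neuron factor, higher by 1.25 (*q* = 2.50e-05). Of 13 nephric duct probes, 4 were above background in a group. Over all probes, 5.07% were higher in OV than in periotic tissue and 5.89% higher than in embryo-minus-otic tissue. In each of these comparisons 2 of the 13 were higher in OV, for *Pax2* and *Pax8*, which are also otic genes. The other probe of each gene was not called, and the *Pax2* calls were lost without normalization. *Wt1*, a kidney and gonad factor, was at least 4.24-fold lower in OV than in embryo-minus-otic tissue (*q* = 4.68e-10).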

How the data were processed

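RNA of the 9 pools was measured on 1-colour Illumina MouseRef-8 v2.0 arrays. The authors deposited the average bead signal of each probe from GenomeStudio, an intensity not normalized between arrays, and a detection p-value against the negative controls of that array. Whether a background was subtracted is not given in the sources used here. Groups came from the labels.

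Signals were log2 transformed (floor of 1) and quantile normalized over these 9 arrays. The study's methods name the same steps, applied there together with neonatal cochlear arrays that are not used here. A linear model of the 3 groups was fitted to each of the 25697 probes (limma 3.58.1, R 4.3.3) with empirical Bayes moderation, and *p* was adjusted within each comparison by the Benjamini-Hochberg method over the whole array. Probes were not averaged. A probe was above background at a detection p under 0.01. Group errors are SD, and the number of arrays limits the precision. The procedure was tested on simulated data. All GATA probes and the partner and GATA-finger genes were open to naming, and from the other lists the 3 called probes with the largest difference. Nearest probes were named for members whose group means spanned at least 1 on the log2 scale. The members and lists were chosen with earlier results of these data known. The array's *Tcf3* probes match *Tcf7l1* by annotation and were left out of the partner list, a choice made after seeing the data. The alternatives were another background correction, other normalizations, filters, models and leaving out each array.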

Additional observations from a re-analysis of the deposited data

How the results depend on the processing

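Of 153 differences of *Gata2*, *Gata3* and *Gata6* under an alternative, 148 kept their direction and side of the threshold, 1 lost its call (*Gata2*, periotic against embryo-minus-otic, without periotic replicate 2) and 4 turned direction, all of them uncalled differences between OV and periotic tissue. For *Gata6* this difference was 0.013 with neqc and 0.021 with array weights, and it ran from -0.14 to 0.11 when 1 array was left out. For *Gata2* it ran from -0.097 to 0.17. The number of GATA probes called in periotic against embryo-minus-otic tissue ran from 1 to 2. The cause of these changes was not tested. Of 1428 list counts, 1300 stayed within 1.5 times and 128 moved. With the array's *Tcf3* probes the partner list gave 4 higher and 5 lower in OV against periotic tissue.

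With the replicate number as a block, GATA calls stayed at 1, 3 and 2, and calls over all probes were 2790, 3221 and 1669 against 2625, 2930 and 1493. Correlations of same-numbered arrays, after the group means were removed, ran from 0.00798 to 0.182, and all 9 arrays correlated best with their own number. The labels do not tie these numbers to litters, so the main fit did not pair the samples. Any pairing by litter is therefore not accounted for in the *q*-values of the main fit. Calls over all probes fell to 1381, 1383 and 696 without normalization, and to 1684 in OV against periotic tissue with median normalization. At a detection *p* under 0.05, 28 GATA values passed in place of 22, and neither *Gata1* probe passed on any array.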
